A study of Mus musculus with 9 samples.

Results

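Sensory neuropeptides are short signalling peptides that primary sensory neurons make, carry along their axons and release both in the spinal cord and in the skin, muscle and viscera. The 10 genes described here, Gal, Npy, Vip, Adcyap1, Tac1, Calca, Calcb, Sst, Cck and Nts, encode the precursors of such peptides and were taken as a list of names, not by a threshold on their values, though earlier results of these data were known. Probes were assigned to them by gene name, older symbol or RefSeq identifier. The arrays carried 14 probes for the 10 genes, out of 41174 probes in all, and 9 of the 10 genes entered the comparison of 20898 genes, Vip being the exception.

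The tissue was L3/L4 dorsal root ganglion (DRG), the cluster of sensory neuron cell bodies and glia beside the spinal cord, from adult mice labelled cre.neg and jun.wt in both groups, that is, without Cre recombinase and with wild-type Jun. There were 5 samples of mice with a transected sciatic nerve, taken 3 days after the cut per the labels (the study's own results text gives an earlier time), and 4 uninjured control samples. Each was labelled with Cy5 and hybridised to a 2-colour Agilent array together with a universal mouse reference RNA labelled with Cy3, always in that orientation. The labels do not tie samples to animals and do not say whether the uninjured ganglia came from injured mice, so p-values measure the spread between these samples, which may in part be technical. The order of replicates is that of the accessions and pairs nothing.

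A neuropeptide is cut out of a longer precursor by proteases in the secretory pathway, packed into dense-core vesicles and released on strong firing, and it then acts on G protein-coupled receptors of neighbouring cells. In the uninjured DRG the peptides of Calca, Calcb and Tac1 (CGRP and substance P) mark many small-diameter pain-sensing neurons, and Sst marks a subset of itch-related neurons. Galanin, neuropeptide Y, VIP and PACAP are the peptides classically described as induced when a peripheral axon is cut.

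The base sequence just before the start of 5 of these genes is shown because 4 of them, Gal, Npy, Adcyap1 and Nts, moved up together and Sst moved down. Each is the 250 bases ahead of the annotated start, on the gene's own strand, 5′ to 3′, from RefSeq on build GRCm38.p6. The promoter table held an entry for 9 of the 10 genes and none for Calcb, and of the 2 starts it lists for Adcyap1 the upstream one is shown. Capitals mark matches on either strand to 4 motifs chosen with the results known: the AP-1 site TGANTCA, the cyclic AMP response element (CRE) TGACGTCA, the CRE half-site TGACG, which lies within the CRE on both strands, and the ATF4-C/EBP element TGATGNAA.
Gal, chr19:3414545-3414794, minus strand: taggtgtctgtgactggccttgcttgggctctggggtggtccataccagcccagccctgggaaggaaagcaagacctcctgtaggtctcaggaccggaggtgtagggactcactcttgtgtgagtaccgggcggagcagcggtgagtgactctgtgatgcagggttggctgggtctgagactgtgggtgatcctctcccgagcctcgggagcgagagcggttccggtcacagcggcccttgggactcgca
Npy, chr6:49822460-49822709, plus strand: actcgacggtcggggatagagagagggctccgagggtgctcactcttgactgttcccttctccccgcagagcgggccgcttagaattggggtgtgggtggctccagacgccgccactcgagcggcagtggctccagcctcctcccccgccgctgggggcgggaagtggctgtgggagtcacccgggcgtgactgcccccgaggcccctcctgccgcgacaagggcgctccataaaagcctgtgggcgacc
Adcyap1, chr17:93198767-93199016, plus strand: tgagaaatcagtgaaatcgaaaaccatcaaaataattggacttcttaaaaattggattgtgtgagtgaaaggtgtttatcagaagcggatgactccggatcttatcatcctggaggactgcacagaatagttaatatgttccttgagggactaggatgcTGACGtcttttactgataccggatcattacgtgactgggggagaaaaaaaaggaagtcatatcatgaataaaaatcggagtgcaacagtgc
Nts, chr10:102490419-102490668, minus strand: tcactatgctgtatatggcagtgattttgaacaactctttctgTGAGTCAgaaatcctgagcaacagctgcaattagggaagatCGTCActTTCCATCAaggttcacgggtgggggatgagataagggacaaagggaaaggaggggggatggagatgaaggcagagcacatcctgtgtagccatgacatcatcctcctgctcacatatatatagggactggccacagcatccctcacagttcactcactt
Sst, chr16:23890845-23891094, minus strand: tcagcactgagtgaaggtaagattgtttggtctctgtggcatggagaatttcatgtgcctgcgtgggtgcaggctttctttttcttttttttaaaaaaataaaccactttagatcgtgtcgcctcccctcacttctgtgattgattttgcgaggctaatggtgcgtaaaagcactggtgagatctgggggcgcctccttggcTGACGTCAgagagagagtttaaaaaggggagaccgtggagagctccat

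The windows of Gal and Npy held no match to these letters. That of Nts held 3 matches, an AP-1 site (TGAGTCA) from -207 to -201 relative to the start, a CRE half-site from -166 to -162 and an ATF4-C/EBP element (TTCCATCA, read on the other strand) from -159 to -152. The Sst window held a full CRE from -48 to -41, and the Adcyap1 window a CRE half-site from -91 to -87. Of the windows not printed, those of Vip, Calca and Cck held 1 CRE half-site each and that of Tac1 held 2. Over all 32851 windows of this length, 6.75% held the AP-1 site, 1.55% the CRE, 17.8% the CRE half-site and 3.45% the ATF4-C/EBP element. A match describes the letters of a window and is not evidence of a bound factor.

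Atf3, a transcription factor induced in axotomised neurons and used here to check the labels, was higher by 5.14 on the log2 scale in the injured samples (limma adjusted p = 2.72e-11). All 7 of the axotomy marker genes listed were higher, beside 11.4% of all genes. Signal was well above background on every array for all 15 of the pan-neuronal genes, all 7 satellite glia genes and all 9 Schwann cell genes listed. The median Cy5 brightness of an array lay between 156 and 238 scanner units, lowest on injured 5, and between 71.0% and 78.9% of spots were well above background. Injured 2 had a raised local background in places. The 3 slides overlapped with the groups: slide 1 held uninjured 1 with injured 1, 2 and 5, slide 2 held uninjured 2, 3 and 4, and slide 3 held injured 3 and 4. A fit with the slide as a fixed factor therefore compares the groups within slide 1 only, on a single uninjured array.

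On the ratio of DRG over reference, 4 of the 9 peptide genes tested were higher after transection (Npy, Nts, Gal and Adcyap1), Sst and Calcb were lower, and Tac1, Calca and Cck were not called, at a limma adjusted p under 0.05 over all genes tested. Of all 20898 genes, 25.4% were called, 11.4% higher and 14% lower, so 6 calls in 9 genes is to be read against that background. The median log2 fold change was 0.13 over the 9 peptide genes and 0.00107 over all genes. Injured and uninjured arrays did not overlap for these 6 genes, which was the case for 23.9% of all genes. In a whole ganglion, fewer cells of a type and less RNA per cell cannot be told apart. With all 126 ways to split the arrays enumerated, the exact permutation p (two-sided) was 0.00794, the smallest possible, for Gal, Npy and Nts, 0.0159 for Adcyap1 and Calcb, and 0.0238 for Sst. The plot of ratios by array shows the 9 genes.

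**Figure D1:**
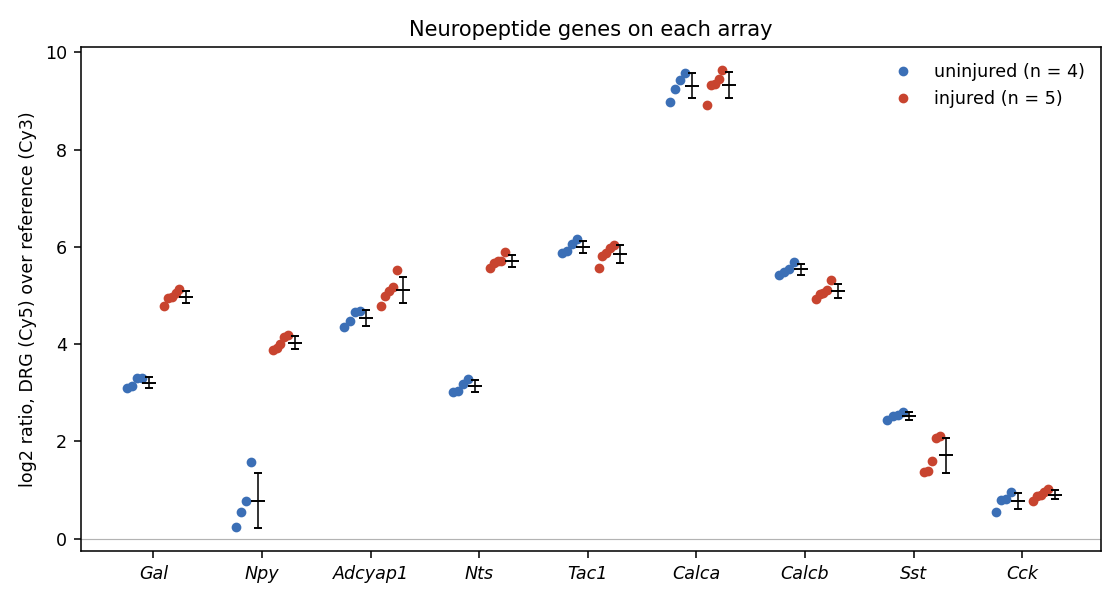
The log2 ratio of DRG (Cy5) over reference RNA (Cy3) for 9 neuropeptide genes, with a point for each of 4 uninjured and 5 injured arrays and bars for the mean and SD of a group. Gal, Npy and Nts lie well apart between the groups, Adcyap1, Calcb and Sst lie apart by less, and Tac1, Calca and Cck overlap.

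Galanin, encoded by Gal, is a peptide that dampens transmission in the dorsal horn and acts on the receptors Galr1, Galr2 and Galr3. Its only probe (NM_010253) lies on chromosome 19 of build mm7, from 3305949 to 3306008 on the minus strand. The log2 ratio of Gal was 3.30, 3.30, 3.10 and 3.14 on the 4 uninjured arrays and 4.78, 5.12, 4.95, 4.96 and 5.04 on the 5 injured arrays. Every injured array lay above every uninjured one, with a wide gap. The means were 3.21 ± 0.106 (SD, n = 4) and 4.97 ± 0.129 (SD, n = 5), a log2 fold change of 1.76 (± 0.0802 SE, adjusted p = 2.69e-07 by limma). This was the rise of rank 77 among all genes.

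In the Cy5 channel, which holds the DRG RNA, the Gal spot read 4966, 5549, 4932 and 4365 on the uninjured arrays and 70042, 83185, 65661, 57142 and 22435 on the injured arrays. Injured 5 was thus far below the other injured arrays and still above all uninjured ones. The Cy3 channel, which holds the same reference RNA on every array, read 304, 302, 281 and 317 beside the uninjured samples and 1136, 1231, 909, 1090 and 573 beside the injured ones. The reference signal of Gal was thus also higher on every injured array, and lowest of these on injured 5. With each channel normalised between arrays and tested alone, Gal rose by 3.58 on the log2 scale in Cy5 (± 0.212 SE, adjusted p = 1.26e-06 by limma) and by 1.66 in Cy3 (± 0.178 SE, adjusted p = 0.00703 by limma). The change in the ratio was the smaller because both channels moved the same way.

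Neuropeptide Y, encoded by Npy, acts mostly through inhibitory receptors on sensory terminals and dorsal horn neurons, and is also a transmitter of sympathetic neurons. Its probe (NM_023456, chromosome 6 of mm7, plus strand) is given from 49783794 to 49787556, a span longer than a probe. The log2 ratio of Npy was 1.57, 0.54, 0.78 and 0.24 on the uninjured arrays and 3.88, 4.14, 3.99, 3.93 and 4.18 on the injured arrays. The uninjured arrays were spread over more than the injured ones, with uninjured 1 the highest, and all injured arrays lay far above them. The means were 0.78 ± 0.572 (SD, n = 4) and 4.03 ± 0.132 (SD, n = 5), a log2 fold change of 3.24 (± 0.218 SE, adjusted p = 3.86e-06 by limma), of rank 8 among the rises of all genes.

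The Cy5 brightness of Npy was 307, 130, 175 and 90.4 in uninjured and 4806, 4634, 4193, 2388 and 2163 in injured DRG. Cy3 read 55.7, 48.3, 48.5 and 47.5 on uninjured arrays, where it was well above background on 2 of 4, and 157, 148, 120, 94.0 and 98.3 on injured arrays, where it was above background on all 5. Npy rose by 4.41 in Cy5 alone (± 0.259 SE, adjusted p = 1.20e-06 by limma), the change of rank 4 among all genes in that channel, and by 1.08 in Cy3 alone (± 0.123 SE, adjusted p = 0.0088 by limma). Within slide 1 the log2 fold change of the ratio was 2.50 (adjusted p = 0.000597), and with Agilent's own ratio it was 2.16. Of the 8 sympathetic neuron genes listed, 5 were tested and 1 was above background on all arrays. Phox2a was higher by 0.42 and Ddc lower by 0.27, while Dbh, the enzyme that makes noradrenaline, was at 0.075 (adjusted p = 0.414). The mean of the list, relative to the uninjured arrays, lay between -0.040 and 0.025 on uninjured and between 0.0092 and 0.24 on injured arrays, and its part in the Npy result was not tested.

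PACAP, encoded by Adcyap1, is a peptide of the VIP family that raises cyclic AMP through the receptors Adcyap1r1, Vipr1 and Vipr2. The Adcyap1 probe (NM_009625) lies on chromosome 17 of mm7 from 91631427 to 91631486 on the plus strand. Its log2 ratio was 4.67, 4.34, 4.48 and 4.66 on the uninjured arrays and 4.79, 4.996, 5.10, 5.17 and 5.52 on the injured arrays. The groups did not overlap, but injured 1 lay close to the highest uninjured array. The log2 fold change was 0.58 (± 0.133 SE, adjusted p = 0.00968 by limma), of rank 837 among the rises of all genes.

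The channels of Adcyap1 gave far larger differences than their ratio. Its Cy5 brightness was 7590, 5898, 7620 and 6128 on uninjured arrays and 57065, 65091, 48266, 38208 and 29259 on injured arrays, so that the dimmest injured array was far above the brightest uninjured one. Its Cy3 brightness was 171, 150, 158 and 147 on uninjured and 920, 1063, 615, 640 and 531 on injured arrays, with as clear a gap. Adcyap1 rose by 2.87 on the log2 scale in Cy5 alone (± 0.0997 SE, adjusted p = 2.09e-08 by limma, rank 27 of the rises in that channel) and by 2.13 in Cy3 alone (± 0.149 SE, adjusted p = 0.000145 by limma). The rise of the ratio was not called with an offset of 0, with Agilent's own ratio or with the slide as a fixed factor, at log2 fold changes of 0.20, 0.25 and 0.43. With the same factor the rise in Cy5 alone was 2.80 (adjusted p = 0.000111).

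Vip encodes vasoactive intestinal peptide, the close relative of PACAP. Its only probe (NM_011702) lies on chromosome 10 of mm7 from 4699488 to 4699547. Cy5 read 52.6, 71.8, 56.8 and 55.6 on uninjured and 70.5, 67.8, 57.5, 52.3 and 61.2 on injured arrays, and was not well above background on any of the 9. The ranges overlapped, and no fold change is given. The files put the probe on the minus strand and RefSeq puts Vip on the plus strand of GRCm38.p6, but the same was true of 26 of 27 other probes within 2 Mb, against 1.41% of all 25725 probes compared, so the turned strand is shared by the stretch around Vip.

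Neurotensin, encoded by Nts, lowers body temperature and relieves pain when given centrally and acts on Ntsr1 and Ntsr2. The Nts probe (NM_024435) lies on chromosome 10 of mm7 from 101968978 to 101969037 on the minus strand. The log2 ratio of Nts was 3.28, 3.18, 3.02 and 3.04 on the uninjured arrays and 5.70, 5.90, 5.66, 5.56 and 5.70 on the injured arrays. The 2 groups were tight and wide apart, at 3.13 ± 0.123 (SD, n = 4) and 5.71 ± 0.125 (SD, n = 5). The log2 fold change was 2.58 (± 0.0822 SE, adjusted p = 1.70e-08 by limma), of rank 24 among the rises of all genes.

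Nts differed from the other 3 rising peptides in the reference channel. Its Cy5 brightness went from 2394, 2197, 2339 and 1813 in uninjured to 15498, 16669, 14239, 10464 and 8749 in injured DRG, while its Cy3 brightness was 145, 126, 139 and 138 against 134, 153, 122, 134 and 143, in overlapping ranges. In Cy5 alone Nts rose by 2.67 (± 0.0867 SE, adjusted p = 1.39e-08 by limma) and in Cy3 alone its difference was 0.0044 (± 0.0295 SE, adjusted p = 0.964). The ratio and the DRG channel thus gave nearly the same value for Nts. Over the alternatives its log2 fold change stayed between 2.47 and 2.72.

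**Figure D2:**
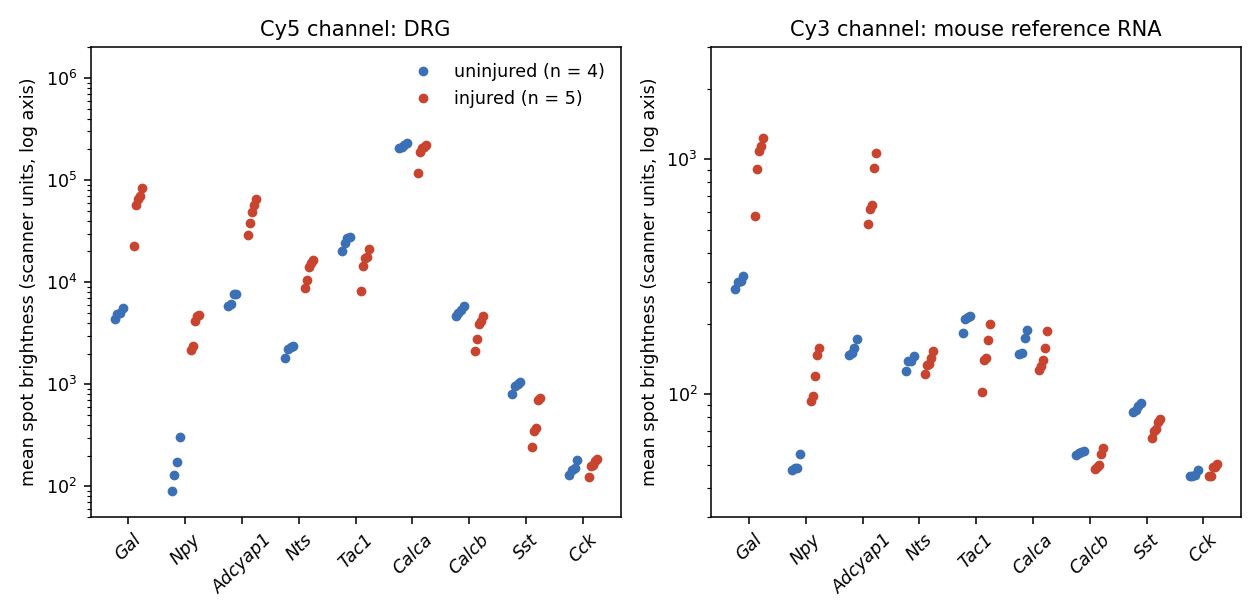
Mean spot brightness in scanner units, on log axes, of 9 neuropeptide genes in the Cy5 channel (DRG, left) and the Cy3 channel (reference RNA, right), with a point for each of 4 uninjured and 5 injured arrays. Cy5 of Gal, Npy, Adcyap1 and Nts is higher on all injured arrays, and Cy3 is higher on all injured arrays for Gal, Npy and Adcyap1 but not for Nts.

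The behaviour of the reference channel was rare outside these genes. In Cy3 alone, 0.158% of all genes were called (33 genes) and 0.0718% were higher on the injured arrays (15 genes), and 3 of these were Gal, Npy and Adcyap1. A rise of more than 1 on the log2 scale in Cy3 was seen for 4 of 20898 genes (0.0191%), namely these 3 and Stmn4, a neuronal stathmin named after its value was seen, at 1.02. All 4 rose by more than 2 in Cy5, as did 62 genes in all (0.297%). On slide 1 alone, Cy3 at the Gal spot was 304 on uninjured 1 and 573 to 1231 on the 3 injured arrays, at Adcyap1 171 and 531 to 1063, and at Npy 55.7 and 98.3 to 157. At the Calca spot, where Cy5 read 116570 to 233658, Cy3 read 127 to 188. The cause of the difference in the reference channel was not tested.

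**Figure D3:**
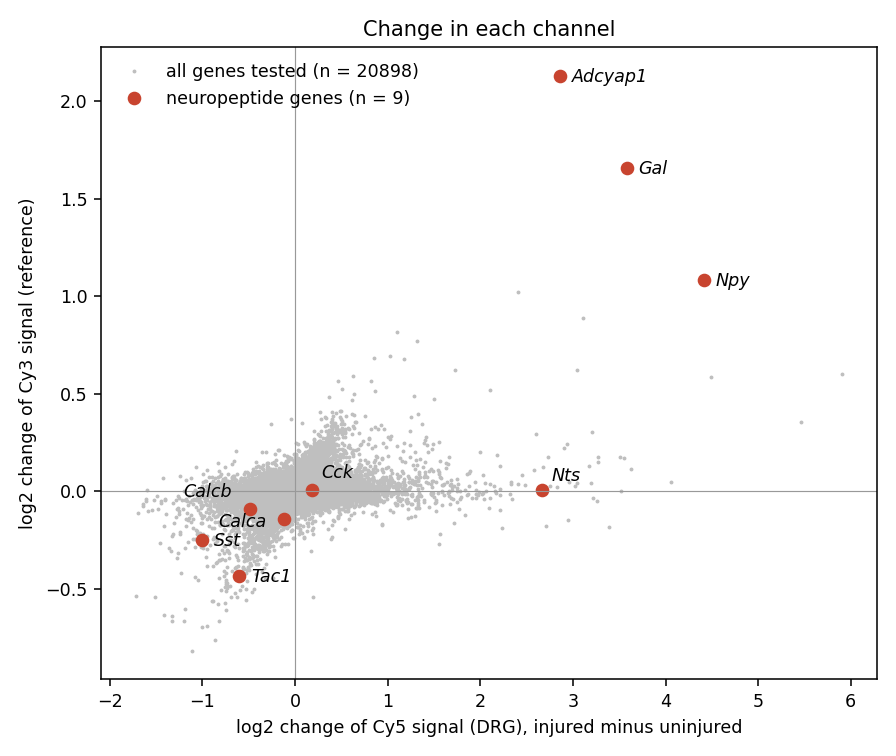
Log2 change after transection of the Cy3 (reference) signal against that of the Cy5 (DRG) signal, each normalised between arrays, for all 20898 genes tested (grey) and 9 neuropeptide genes (red). Adcyap1, Gal and Npy lie above 1 on the vertical axis, apart from the cloud, and Nts lies near 0 on it at 2.67 on the horizontal axis.

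Substance P and neurokinin A come from Tac1 and act on Tacr1 and Tacr2. The probe that stood for Tac1 (NM_009311, chromosome 6 of mm7, from 7510608 to 7512022, plus strand) had log2 ratios of 6.16, 5.87, 5.91 and 6.06 on uninjured and 5.56, 5.86, 5.81, 5.97 and 6.04 on injured arrays. The groups overlapped, and the difference of -0.15 (± 0.101 SE, adjusted p = 0.319 by limma) was not called. Its Cy5 brightness was 27360, 24299, 27949 and 20383 in uninjured and 17190, 20954, 17842, 14567 and 8193 in injured DRG, and its Cy3 brightness 215, 209, 213 and 182 against 170, 199, 140, 142 and 102. In Cy5 alone, normalised between arrays, the groups did not overlap and Tac1 fell by 0.60 on the log2 scale (± 0.121 SE, adjusted p = 0.00466 by limma), a call that 23.4% of all genes received in that channel and that was not made with the slide as a fixed factor (-0.78, adjusted p = 0.084). The Cy3 difference was -0.43 (adjusted p = 0.336). Another pair of probes, made to the cDNA AK015286, lies 6256 and 7747 bases away and was not above background on any array.

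Calca and Calcb are neighbouring genes that encode the alpha and beta forms of calcitonin gene-related peptide (CGRP), a vasodilator peptide whose receptor is formed by Calcrl and Ramp1. Calca also yields calcitonin by alternative splicing. The brighter Calca probe (NM_001033954, chromosome 7 of mm7, from 110547755 to 110547814, minus strand) had log2 ratios of 9.43, 8.98, 9.25 and 9.58 on uninjured and 8.91, 9.44, 9.32, 9.63 and 9.35 on injured arrays. The ranges lay over each other, and the difference was 0.022 (± 0.151 SE, adjusted p = 0.938 by limma), with a sign that turned under several alternatives. Its Cy5 brightness was 233658, 207984, 218957 and 209571 against 211486, 218680, 205074, 189897 and 116570, with no spot saturated, and its Cy3 brightness 174, 188, 149 and 149 against 187, 158, 127, 132 and 140. Cy5 alone gave -0.12 (adjusted p = 0.349). A probe 1628 bases away, listed under NM_007587, was far dimmer, with Cy5 of 249 to 333 in uninjured and 218 to 294 in injured DRG, and differed by -0.29 (± 0.102 SE, adjusted p = 0.0661 by limma with every probe tested).

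Calcb (NM_054084, chromosome 7 of mm7, from 110639085 to 110639144, plus strand) had log2 ratios of 5.69, 5.42, 5.49 and 5.55 on uninjured and 5.11, 5.31, 5.04, 4.93 and 5.05 on injured arrays. The injured arrays were all lower, with injured 2 nearest to the uninjured ones. Calcb fell by 0.45 on the log2 scale (± 0.085 SE, adjusted p = 0.0032 by limma), and by 0.49 in Cy5 alone (± 0.0872 SE, adjusted p = 0.00241 by limma). Its Cy5 brightness was 5300, 5004, 5836 and 4706 against 4617, 4200, 3875, 2791 and 2128, and its Cy3 brightness was between 48.2 and 59.1, not above background on 2 injured arrays. With the slide as a fixed factor the Cy5 fall was not called (-0.47, adjusted p = 0.167). The call on the ratio was lost with an offset of 0 (-0.25), with the slide as a fixed factor (adjusted p = 0.051) and with Agilent's own ratio, where the difference was 0.13. The change of Calca minus that of Calcb was 0.47 (two-sided exact permutation p = 0.0317 over the same 126 splits), and 0.37 in Cy5 alone (exact permutation p = 0.00794). The first of these was -0.025 with Agilent's own ratio. It lost its call when any of 7 arrays was left out, which also leaves fewer splits to enumerate. Its value then stayed between 0.358 and 0.583 over all arrays left out in turn.

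Somatostatin, encoded by Sst, inhibits hormone release and neuronal firing through Sstr1 to Sstr5. The Sst probe (NM_009215, chromosome 16 of mm7, from 23547994 to 23548053, minus strand) was printed on 10 spots of every array. Its log2 ratio, averaged over spots, was 2.61, 2.55, 2.51 and 2.43 on uninjured and 2.08, 1.38, 2.11, 1.59 and 1.40 on injured arrays. All injured arrays were lower, and among them injured 1 and 3 lay near each other and well above injured 2, 4 and 5. The repeated spots of an array had an SD of 0.0494 to 0.118, which is the spread within an array and not between samples. Sst fell by 0.81 on the log2 scale (± 0.159 SE, adjusted p = 0.00382 by limma), and by 1.00 in Cy5 alone (± 0.233 SE, adjusted p = 0.0105 by limma). Cy5 read 966, 1011, 1053 and 796 in uninjured and 697, 349, 731, 377 and 241 in injured DRG, and Cy3 read 84.2 to 91.5 and 64.9 to 78.3. The call was lost with the slide as a fixed factor, at -0.99 (adjusted p = 0.0857), and so was that in Cy5 alone, at -1.21 (adjusted p = 0.142).

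Among the injured arrays, those with the lowest Sst were also those with higher means of several lists on the ratio. Blood, muscle and pan-neuronal genes were among these, but in Cy5 alone the pan-neuronal means were lower on the same arrays. Relative to the uninjured mean, the 4 red blood cell genes tested of 7 listed averaged -0.057 on injured 1 and 0.15 on injured 3, and 1.57, 0.68 and 1.11 on injured 2, 4 and 5, against -0.24 to 0.31 on uninjured arrays. The 10 skeletal muscle genes averaged -0.073, 1.57, -0.17, 3.07 and 0.32 on injured 1 to 5, against -0.067 to 0.12 on uninjured arrays. The 13 macrophage genes averaged 0.024, 1.01, 0.25, 0.40 and 0.96, against -0.45 to 0.37. All 4 red blood cell and all 10 muscle genes, and 12 of the 13 macrophage genes, were above background on every array. None of the red blood cell and muscle genes was called on the ratio. The 15 pan-neuronal genes averaged -0.199, -0.0107, -0.12, -0.0175 and 0.125 on injured 1 to 5, against -0.101 to 0.0728 on uninjured arrays. In Cy5 alone they averaged -0.0833, -0.2, -0.146, -0.206 and -0.22 on injured 1 to 5, against -0.0624 to 0.107 on uninjured arrays. The part of any of these cells in the Sst result was not tested.

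Cholecystokinin, encoded by Cck, is a gut and brain peptide that acts on Cckar and Cckbr. The Cck probe used (NM_031161, chromosome 9 of mm7, from 121192651 to 121192710, minus strand) was dim, with Cy5 of 145, 128, 182 and 150 on uninjured and 177, 158, 161, 186 and 122 on injured arrays. Cy3 was not above background on any array. The groups overlapped in the log2 ratio, at 0.77 ± 0.169 (SD, n = 4) and 0.90 ± 0.0969 (SD, n = 5), a difference of 0.13 (± 0.0863 SE, adjusted p = 0.307 by limma). Cy5 alone gave 0.18 (adjusted p = 0.258), and a dimmer probe under BC028487 gave -0.051 (adjusted p = 0.708 with every probe tested).

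**Figure D4:**
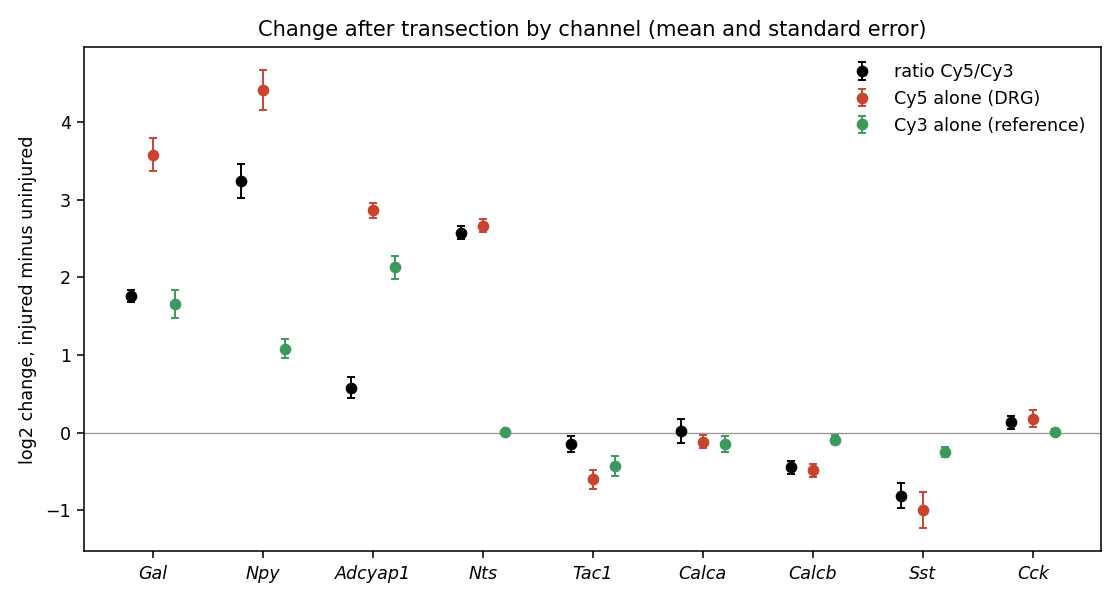
Log2 change after transection, injured minus uninjured, with its standard error, of 9 neuropeptide genes in the ratio, in Cy5 alone and in Cy3 alone (4 uninjured and 5 injured arrays). Adcyap1 stands at 0.58 in the ratio and 2.87 in Cy5, whereas Nts stands at 2.58 and 2.67.

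The order of the rising peptides differed between the scales. On the ratio it was Npy, Nts, Gal and Adcyap1, and in Cy5 alone it was Npy, Gal, Adcyap1 and Nts, at 4.41, 3.58, 2.87 and 2.67, with standard errors of 0.0997 and 0.0867 for the last pair, whose difference was not tested. The order on the ratio also moved with the processing, Nts (2.72) standing above Npy (2.16) with Agilent's own ratio and level with it (2.49 and 2.50) with the slide as a fixed factor. In Cy5 alone 4 genes were higher, as were 9.37% of all genes, and Tac1, Calcb and Sst were lower, as were 14.1% of all genes, though none of these 3 was called with the slide as a fixed factor, and the median over the 9 genes was 0.18, against -0.012 over all genes.

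The genes whose ratios followed the 3 strongest rises most closely over the 9 arrays, by the root mean square difference of log2 ratios from the uninjured mean, were Lgals3, Nkain1 and Rin1 for Gal (0.122 to 0.129), Plaur, Mmp16 and Kif22 for Nts (0.131 to 0.186), and Sox11 and Ucn for Npy (0.347 and 0.363). The genes were picked for this closeness, so rises near those of the peptides were fixed by the choice. Lgals3, which encodes the lectin galectin-3, rose by 1.66, and Plaur, the urokinase receptor, by 2.47. Sox11, a transcription factor of developing and regrowing neurons, rose by 3.15.

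Among 24 receptor and receptor partner genes of these peptides that were tested, Cckbr, Npy1r and Ramp3 were higher and Sstr2 and Adcyap1r1 were lower, beside the 25.4% of all genes called, and the median was -0.014. Cckbr, which binds cholecystokinin and gastrin, rose by 3.70 (± 0.115 SE, adjusted p = 1.68e-08 by limma) on its brighter probe, above background on 3 of 4 uninjured and all injured arrays, and by 0.44 on a dimmer one. The Y1 receptor gene Npy1r rose by 0.70 and Ramp3 by 0.27. Sstr2, a somatostatin receptor, fell by 0.96 (± 0.0881 SE, adjusted p = 3.40e-05 by limma), and Adcyap1r1, the PACAP receptor, by 0.36, with a second probe at -0.0065. In Cy5 alone 2 were higher and 1 was lower, beside 9.37% and 14.1% of all genes in that channel.

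Of 37 other peptide and secreted-factor precursors tested, 5 were higher and 2 lower, with a median of 0.030, beside the 25.4% of all genes called. Ucn, which encodes urocortin of the corticotropin-releasing factor family, rose by 3.15 (± 0.125 SE, adjusted p = 9.34e-08 by limma), with Cy5 above background on 3 of 4 uninjured and all injured arrays. Grp, the gastrin-releasing peptide gene, was not well above background on any uninjured array and was on all 5 injured arrays. It passed the filter through the injured arrays alone, and its uninjured signal was near background. Its place among the 5 higher genes depends on that filter, so no p-value is given for it. With its uninjured Cy5 raised to the lowest signal well above background, the difference was at least 5.88-fold. Pthlh rose by 1.22. Nmb, the neuromedin B gene, fell by 0.33. Agrp was lower by 0.25 (adjusted p = 0.0458 by limma), with overlapping groups. In Cy5 alone Agrp was not called (-0.16, adjusted p = 0.243 by limma).

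Of 26 genes for precursor processing and dense-core vesicles, 3 were higher and 3 lower, with a median of -0.11, beside the 25.4% of all genes called. In Cy5 alone 2 of the 26 were higher and 9 lower, with a median of -0.23, beside 9.37% of all genes higher and 14.1% lower in that channel. Ptprn, a vesicle membrane protein, rose by 0.58, Hid1 by 0.51 and the prohormone convertase Pcsk1 by 0.43. Rab27b, a small GTPase of vesicle docking, fell by 1.46, Cadps2, a vesicle priming factor, by 0.48 and Scg5 by 0.25. Of 14 peptide-degrading enzymes, 2 were called, beside the 25.4% of all genes, both lower: Cpm (-0.56) and Lnpep (-0.28).

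Among 11 other genes listed for nociceptors, not all of them peptidergic, 3 were higher and 4 were lower, beside 11.4% and 14% of all genes. The median of the 11 was -0.12. The interleukin-31 receptor gene Il31ra rose by 0.71, Gfra3 by 0.46 and Osmr by 0.31, while the sodium channel gene Scn9a fell by 0.54, Prkca by 0.52 and Kit by 0.47. Of the 15 pan-neuronal genes, Gap43 was higher by 0.62 and 3 were lower, by 0.49 for Isl1, 0.31 for Syt1 and 0.28 for Elavl4. These calls stand beside the 25.4% of all genes called, and the median of the 15 was -0.027. In Cy5 alone 2 of the 15 were higher and 6 lower, beside 9.37% and 14.1% of all genes in that channel. The median of the 15 was -0.21, in the direction of the Cy5 falls of Tac1 and Calcb. The part of this in those falls was not tested.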

How the data were processed

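RNA of 4 uninjured and 5 injured L3/L4 DRG samples was measured on 9 two-colour Agilent arrays. The scanner intensities, as deposited, are the mean spot brightness and local background of each channel. The log10 ratios of the same files were made by Agilent's software per the file headers. The authors' processed values are log2 ratios, for which the labels name limma. The values used here had a slope of 1.005 to 1.013 against them.

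From the scanner intensities, limma 3.58.1 in R 4.3.3 was used for normexp background correction (offset 50) without spots flagged as non-uniform, loess within arrays, the mean of repeated spots, a filter that kept the 31186 probes with Cy5 well above background on 4 arrays or more, and the choice of the brightest probe of a gene. Of 41174 probes, 22951 were named by accession, 6659 by symbol, 3109 by an older name and 8455 kept the name in the file. Channels alone were normexp intensities, quantile-normalised between arrays. Groups were compared with limma and Benjamini-Hochberg adjustment (threshold 0.05), and the change of Calca minus that of Calcb with an exact permutation test. The procedure was tested on simulated data. Alternatives were other background corrections, scalings, filters, probe rules, slide terms, array weights, a 1.5-fold threshold and leaving out each array; leaving out population outlier spots was chosen after seeing the data. The members, lists and motifs were chosen with earlier results of these data known. All members were named, and of each list the 3 largest rises and falls among called genes, with the 3 genes nearest in pattern to each member that rose more than 2-fold, of which 1 is not reported here. The number of arrays limits the precision. Plots came from matplotlib 3.10.9 in Python 3.11.15.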

Additional observations from a re-analysis of the deposited data

Results flagged for a closer look

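Of 54 sets of values checked (9 genes, 2 groups, ratio and both channels), 4 held an array far from the rest of its group, and chance alone flags about 1 in 20. On injured 5 the log2 Cy5 signal of Gal, normalised between arrays, was 15, against 15.9 on the nearest injured array, and its Cy3 signal was 9.18, against 10.1. Without injured 5 the rise of Gal in Cy5 alone was 3.79. The Cy5 signal of Calca on injured 5 was 17.3, against 17.6 on the nearest array, and without it the difference in Cy5 alone was -0.052. The Cy3 signal of Calca on injured 1 was 7.66, against 7.30.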

How the results depend on the processing

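Gal, Npy and Nts were called higher, with the same sign, in every alternative that tested them, and with any array left out 4 peptide genes were called higher and 2 lower. In the other alternatives 3 or 4 were called higher. In Cy5 alone 3 were called lower, Tac1 being the addition. Over all genes, more were called with slide as a random block (7409) and with array weights (6551) than in the main fit. Genes called numbered 5312, but 2657 under median centring (36.8% of them higher, against 45%), 1181 with slide as a fixed block (53.3% higher) and 1242 above 1.5-fold as well (56.4% higher), and 4026 to 5445 with an array left out. Peptide genes called lower numbered 2, but 1 with an offset of 0, with Agilent's log ratio, with the 1.5-fold threshold and with both channels above background on all arrays (which leaves Npy, Calcb and Cck untested), and 0 with slide as a fixed block.

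Adcyap1 was not called with an offset of 0 (0.195), Agilent's log ratio (0.246) or slide as a fixed block (0.429), Calcb with an offset of 0 (-0.249) or slide as a fixed block (-0.535), and Sst with slide as a fixed block (-0.993), while Tac1 was called in Cy5 alone (-0.603). Signs turned with Agilent's log ratio for Calcb (0.132), Tac1 (0.0583) and Cck (-0.503), with an offset of 0 for Tac1 (0.0253), and for Calca with normexp on all spots (-0.0618), median centring (-0.088), Cy5 alone (-0.118), the mean of its probes (-0.132), slide as a fixed block (-0.196), with a range of -0.0875 to 0.128 when an array was left out.

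The change of Calca minus that of Calcb, 0.472, was 0.316 with an offset of 0 (exact permutation p = 0.198), -0.0251 with Agilent's log ratio (exact permutation p = 0.905) and 0.339 within slide 1, where 1 array against 3 cannot pass the threshold; it ran from 0.358 to 0.583 with an array left out, and of these fits only those without uninjured 4 or injured 1 had an exact p under 0.05. A random slide term (correlation -0.207) and array weights do not apply to that test. The change of Vip minus that of Adcyap1 was not run, as Vip was not above background. The causes of these shifts were not tested. No paired analysis was possible because the replicate numbers follow accession order and the labels pair no samples.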
